A study of Papio hamadryas with 4 samples.

Results

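The genes described here are 10 markers of macrophages and monocytes, LYZ, CD68, CD14, CD163, CSF1R, AIF1, TYROBP, FCER1G, LAPTM5 and ITGB2, chosen by name. They were matched through the gene symbol that the platform annotation gives each probe, which yielded 12 of 48702 probes and 10 of 18774 genes. AIF1 and CD163 had a pair of probes each and the other markers 1. The RNA came from kidney biopsies of baboons (Papio hamadryas), and Illumina bead arrays with human gene symbols were used to read it. The animals had a normal SLC (NSLC) or a high SLC (HSLC) phenotype. The labels leave SLC unexplained and call the study one of blood pressure phenotypes. Biopsies of each phenotype followed 6 weeks of low and 6 weeks of high dietary sodium, so there were 4 groups, each with 1 array. The labels name no age, genotype or drug for any group, and neither the number of animals per array nor the order of the diets is known here.

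Macrophages are resident in the kidney interstitium, and circulating monocytes can enter the tissue and mature into them. Their survival depends on the receptor CSF1R, which binds the growth factors CSF1 and IL34. Many of their surface receptors have no signalling tail of their own and signal through the small membrane adaptors TYROBP and FCER1G. No probe sequence was used here, so the markers are given by their values alone. The match of the probes to baboon transcripts was therefore not checked, and a low signal does not show that a transcript was scarce.

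With 1 array a group, no value has a replicate error, and a ratio of 1 array over another has no test. Ratios are given as log2 ratios after background correction and quantile normalization of the 4 arrays. A size rule of 1.5-fold (a log2 ratio of 0.58) was used to count genes, and it is not a test. As a measure of technical scatter, the ratios of paired bright probes of 515 genes were compared. Their difference, divided by the square root of 2, had a standard deviation of 0.21 in the NSLC diet comparison and 0.17 in the HSLC one. The test used was limma with diet and phenotype as additive terms on all 4 arrays, which leaves 1 residual degree of freedom. It asks for the diet difference that both phenotypes share, and no replicates within a group enter its error. That error comes from the disagreement between the phenotypes' diet ratios and is largely pooled over all genes tested. In it, differences between animals cannot be told apart from differences in response. The pooled part has 12.97 prior degrees of freedom, beside the 1 residual degree of the gene itself. A probe was called detected when it was brighter than the median probe of its array.

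The array medians lay between 68.2 and 79.5, and the NSLC high sodium array had the widest distribution, with a 99th percentile of 3298 against 2320 to 2490 on the other arrays. Arrays also stood apart in markers of other tissues. The summed intensity of 12 skeletal muscle genes was 17449 in HSLC on low sodium and between 1142 and 1917 elsewhere. The summed intensity of 18 neutrophil genes was 3897 in HSLC on high sodium and 1500 to 1699 elsewhere. On that array DEFA1B stood at 1513 and CAMP at 967, while the median diet effect of the detected neutrophil genes was 0.03. The diet results were repeated without these arrays. The phenotype comparisons and the difference of diet ratios each need them, so those values have no counterpart without them, and the counts for other gene lists were not repeated without them.

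The diet difference shared by both phenotypes was called as a rise on high sodium for 7 of the 10 markers. AIF1 was among them, though its NSLC log2 ratio of 0.13 lay below the probe scatter of 0.21. In the additive limma fit these 7 rose and 0 fell among the 8 detected on all 4 arrays, against 8.79% of 11909 genes that rose and 7.11% that fell. The median diet effect of the 8 markers was 0.66 on the log2 scale, against 0.02 over all genes tested. After normalization both high sodium arrays lay above both low sodium arrays for 8 of 8 markers, as they did for 31% of all genes. The opposite order held for 26.2% of genes. In the deposited intensities CD14 did not keep this order, at 76.5 in HSLC on high sodium and 79.2 in NSLC on low sodium. The calls depended on the phenotype term: in a limma fit with diet as the only term on the 4 arrays 0 markers were called, with 5 at an unadjusted p under 0.05 and a lowest adjusted p of 0.0519, for FCER1G. Of the 11909 genes, 25 were called as risen in that fit, and 1365 rose and 1149 fell at an unadjusted p under 0.05. In a kidney biopsy, more macrophages and more RNA per macrophage cannot be told apart. Nor can either be told from a change in the other cells of the sample, whose markers are given below.

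**Figure D1:**
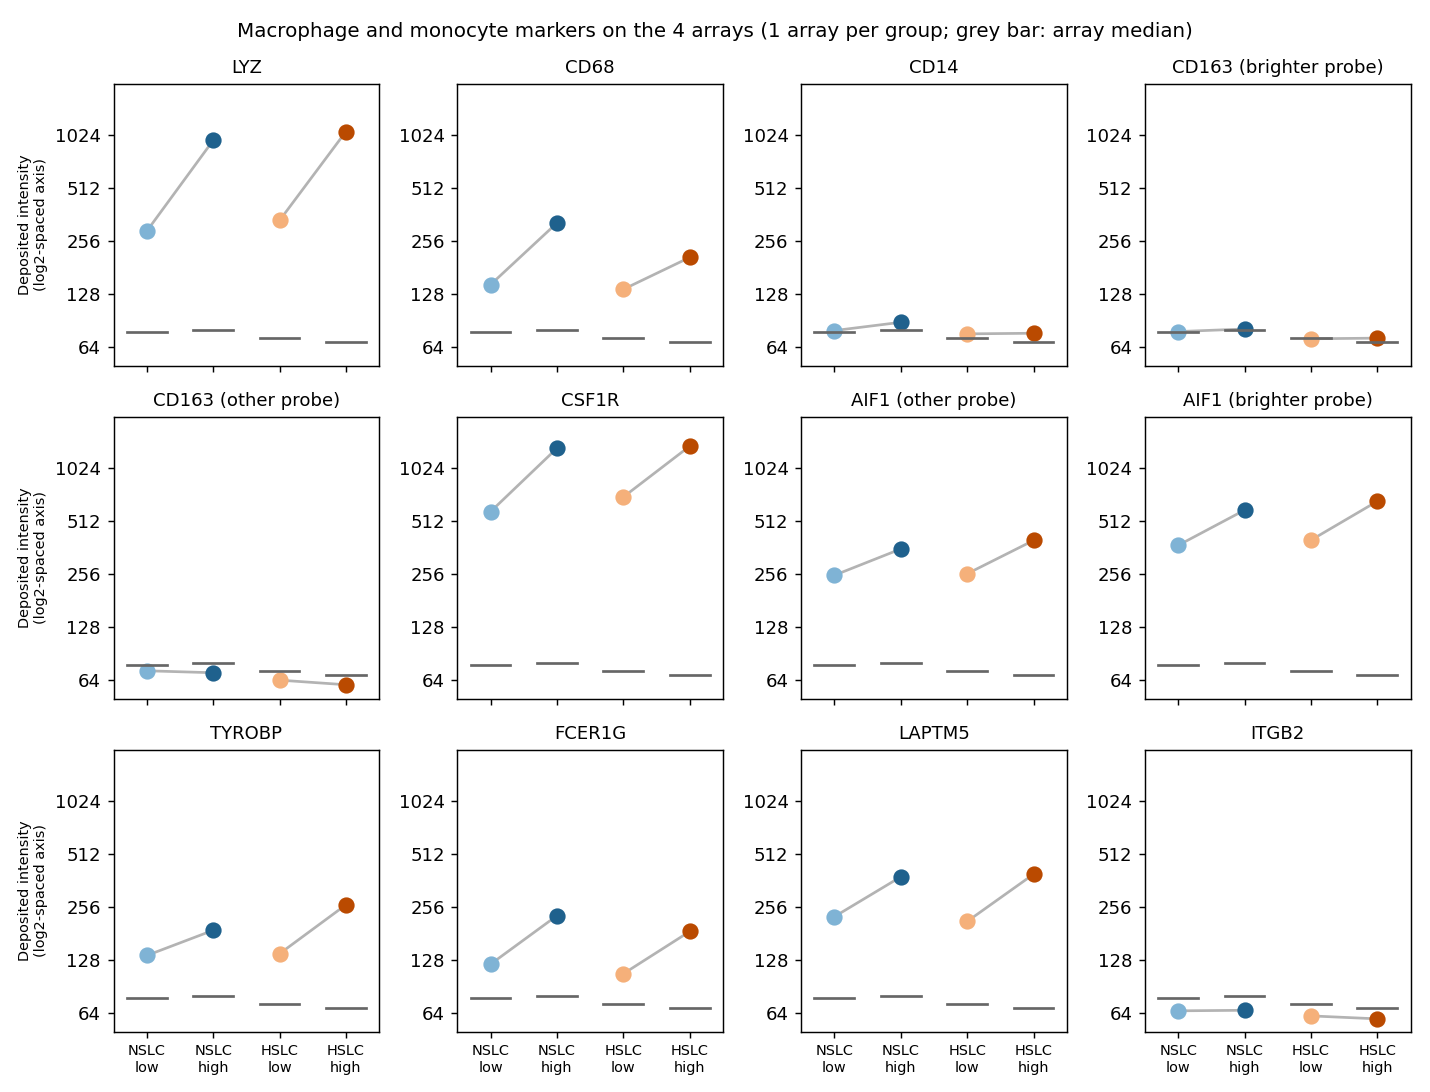
Deposited intensity (log2-spaced axis) of each of the 12 probes on the 4 arrays, 1 point per array, with grey bars at the array median and lines joining the diets of a phenotype. Points climb from low to high sodium for LYZ, CD68, CSF1R, AIF1, TYROBP, FCER1G and LAPTM5, and sit close to or below the array median for CD14, CD163 and ITGB2.

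CSF1R, the growth factor receptor that defines the lineage, had intensities of 578 and 1324 in NSLC on low and high sodium and of 699 and 1360 in HSLC. Both high sodium values were well above both low sodium values. The normalized log2 ratio of high over low sodium was 0.64 in NSLC and 0.86 in HSLC. The shared diet effect was 0.75 ± 0.09 (SE; limma adjusted p = 0.000116, higher in 2 of 2 phenotypes).

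TYROBP, known as DAP12, passes on signals of activating receptors of myeloid and natural killer cells. Its intensities were 136 and 189 in NSLC on low and high sodium and 139 and 263 in HSLC. The low sodium samples of both phenotypes were nearly level, and HSLC on high sodium was the highest of the 4. The ratios were 0.29 in NSLC and 0.89 in HSLC, and the shared effect was 0.59 ± 0.12 (limma adjusted p = 0.00423). The call was lost with cyclic loess (0.0534) and when undetected genes were kept in the fit (0.0826).

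FCER1G, the common gamma chain of Fc receptors, had intensities of 121 and 228 in NSLC and 107 and 186 in HSLC. Its ratios of 0.73 in NSLC and 0.80 in HSLC differed by less than the probe scatter. It rose by 0.76 ± 0.09 (limma adjusted p = 6.45e-05). The adaptors had close ratios in HSLC and unlike ones in NSLC, where TYROBP was at 0.29 and FCER1G at 0.73.

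LYZ encodes lysozyme, a bacteria-degrading enzyme of macrophage and neutrophil granules, and had the largest diet effect of the markers. Its intensities were 291 and 952 in NSLC and 334 and 1069 in HSLC, so that the high sodium values stood far above both low ones. The ratios were 1.20 in NSLC and 1.57 in HSLC, and the shared effect was 1.39 ± 0.10, or 2.61-fold (limma adjusted p = 1.2e-06). LYZ was the only marker past 2-fold in either phenotype under the normalization used.

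CD68, a glycoprotein of late endosomes and lysosomes, had intensities of 144 and 323 in NSLC and 136 and 206 in HSLC. Its ratio was larger in NSLC, at 0.88, than in HSLC, at 0.59. It rose by 0.74 ± 0.10 (limma adjusted p = 0.000179). LAPTM5, a lysosomal membrane protein of blood cells that lowers antigen receptor levels in lymphocytes, had intensities of 225 and 379 in NSLC and 212 and 393 in HSLC. Its ratios were 0.34 and 0.79, and the shared effect was 0.57 ± 0.11 (limma adjusted p = 0.00257, and 0.0561 with undetected genes kept). Of 14 detected lysosomal genes that most cells express, 0 rose and 1 fell in the limma fit, with a median of 0.09. The gene that fell was CTSL, a cysteine protease, at -0.28 (limma adjusted p = 0.0444, and 0.984 without normalization). The count of lysosomal genes that rose was 1 without normalization and 3 with median scaling.

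AIF1, known as IBA1, an actin-binding protein of activated macrophages, was read by a pair of probes. The brighter probe had intensities of 372 and 589 in NSLC and 398 and 662 in HSLC. The other probe had 251 and 354 in NSLC and 256 and 396 in HSLC, and both probes put the 4 samples in the same order. The ratios of the probes were 0.13 and 0.08 in NSLC and 0.61 and 0.52 in HSLC. The brighter probe rose by 0.37 ± 0.11 (limma adjusted p = 0.035), while the other stood at 0.30 (limma adjusted p = 0.0716). The call was also lost with cyclic loess (0.0689), with the mean over probes (0.0788) and with undetected genes kept (0.152).

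The other 3 markers lay close to or below the array median. CD14, a co-receptor for bacterial lipopolysaccharide that marks monocytes, had intensities of 79.2 and 88.2 in NSLC and 75.8 and 76.5 in HSLC. These were 1.02 to 1.12 times the array medians, and the diet effect of 0.10 ± 0.09 did not pass (limma adjusted p = 0.475). The scavenger receptor CD163, which takes up haemoglobin bound to haptoglobin, was detected on 3 arrays by its brighter probe, at 0.99 to 1.05 times the median over the 4, and on 0 by the other. ITGB2, the beta chain shared by the leukocyte integrins, lay at 0.83 to 0.87 times the median on all 4 arrays. At this signal a difference in CD14, CD163 or ITGB2 may have gone undetected, and their ratios near 0 do not show that the transcripts were unchanged.

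**Figure D2:**
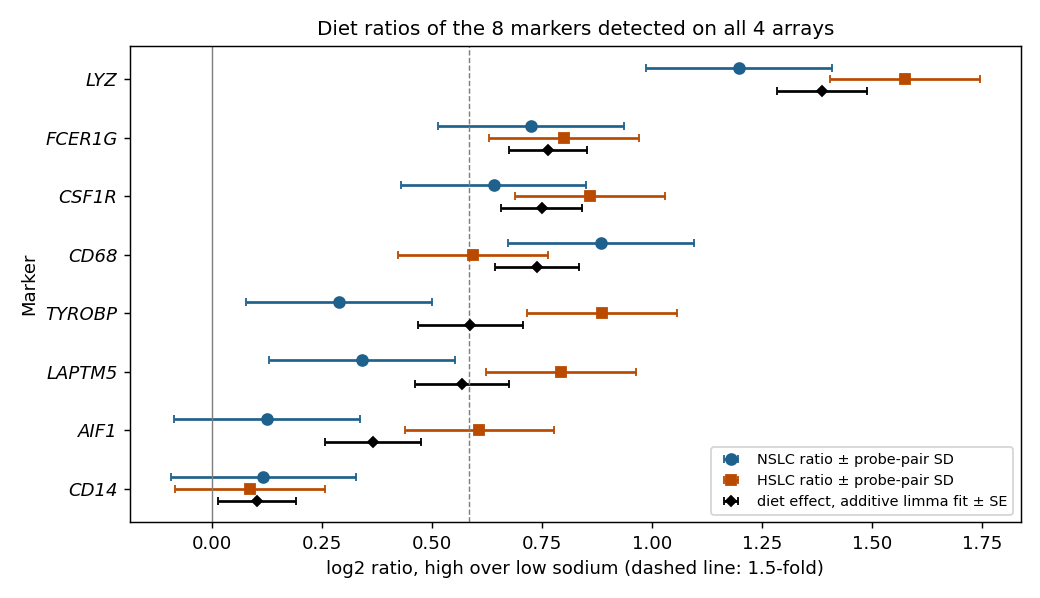
Log2 ratio of high over low sodium for the 8 markers detected on all 4 arrays, in NSLC (circles) and HSLC (squares) with the probe-pair standard deviation as bars, and the shared diet effect of the additive limma fit (diamonds) with its SE. The largest effect is that of LYZ at 1.39, and CD14 at 0.10 is the marker that was not called.

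By the size rule 4 markers were higher by 1.5-fold or more on high sodium in NSLC, namely LYZ, CD68, FCER1G and CSF1R, against 2.3% of 12191 genes. In HSLC 7 were, against 2.25% of 12481 genes, and 4 in both phenotypes, against 1.26%. By the same rule 0 markers were lower, against 1.76% of genes in NSLC and 1.33% in HSLC. All 9 markers measured in NSLC and all 8 in HSLC were above 0, against 56.4% and 52.6% of genes. The median ratio of the detected markers was 0.34 in NSLC over 9 markers and 0.80 in HSLC over 8, against 0.04 and 0.01 over all genes. Without normalization the NSLC median was 0.76, while the median of all genes there stood at 0.28.

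The diet results were repeated with other arrays as the base. Against the low sodium array of NSLC in place of the muscle-rich one, HSLC on high sodium had ratios of 1.71 for LYZ, 1.05 for CSF1R, 0.98 for TYROBP and 0.55 for CD68. Against the low sodium array of HSLC, NSLC on high sodium had 1.06 for LYZ, 0.92 for CD68, 0.83 for FCER1G and 0.11 for AIF1. All 8 detected markers were above 0 in both, which had to follow from both high sodium arrays lying above both low sodium arrays after normalization. With phenotype in the model, 3 arrays leave no residual degree of freedom, so these fits had diet as their only term. On 3 arrays the diet effects of the 8 detected markers ran from 0.10 to 1.13 without the HSLC high sodium array. They ran from 0.11 to 1.64 without the NSLC high sodium array. The range was 0.12 to 1.46 without the HSLC low sodium array and 0.08 to 1.32 without the NSLC low sodium array. Each of these fits left 1 array in a diet group, and which markers were called varied with the array left out. With diet as the only term on all 4 arrays limma called 0. All 8 diet effects were above 0 in each of these fits, but that same order of the arrays, found for 31% of all genes, fixes the sign beforehand. The signs are therefore no further support, and only the sizes of the effects are informative here.

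The question whether the phenotypes respond differently to sodium was addressed by the difference of the diet ratios, which has no test in this design. HSLC had the larger ratio for 6 of 8 markers, against 50.3% of genes, with a median difference of 0.30 against 0.00 over all genes. TYROBP differed most, at 0.60, and was the 1 marker past 1.5-fold, against 0.613% of 11909 genes, and 0 were past it in the other direction, against 1.22%. AIF1 was at 0.48, LAPTM5 at 0.45, LYZ at 0.38, CSF1R at 0.22 and FCER1G at 0.07. CD14 was at -0.03 and CD68 at -0.29.

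This difference depended on the scaling. Without normalization the median fell to -0.08 and with median scaling to -0.01, and LYZ (-0.05), CSF1R (-0.24) and FCER1G (-0.13) then had the larger ratio in NSLC without normalization. With median scaling CSF1R (-0.17) and FCER1G (-0.06) did. CD14 stood at 0.26 with the series matrix as deposited. In the deposited intensities the fold of high over low sodium was 3.28 in NSLC and 3.20 in HSLC for LYZ, and 2.29 and 1.94 for CSF1R. For TYROBP it was 1.39 and 1.90. The median of all genes stood at -0.21 without normalization and at -0.14 with median scaling. Relative to the median of all genes, the markers' median was 0.13 in both and 0.30 under quantile normalization. TYROBP stayed above 0 under all 10 alternatives, LAPTM5 between 0.13 and 0.54 over the scalings shown, and CD68 below 0.

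**Figure D3:**
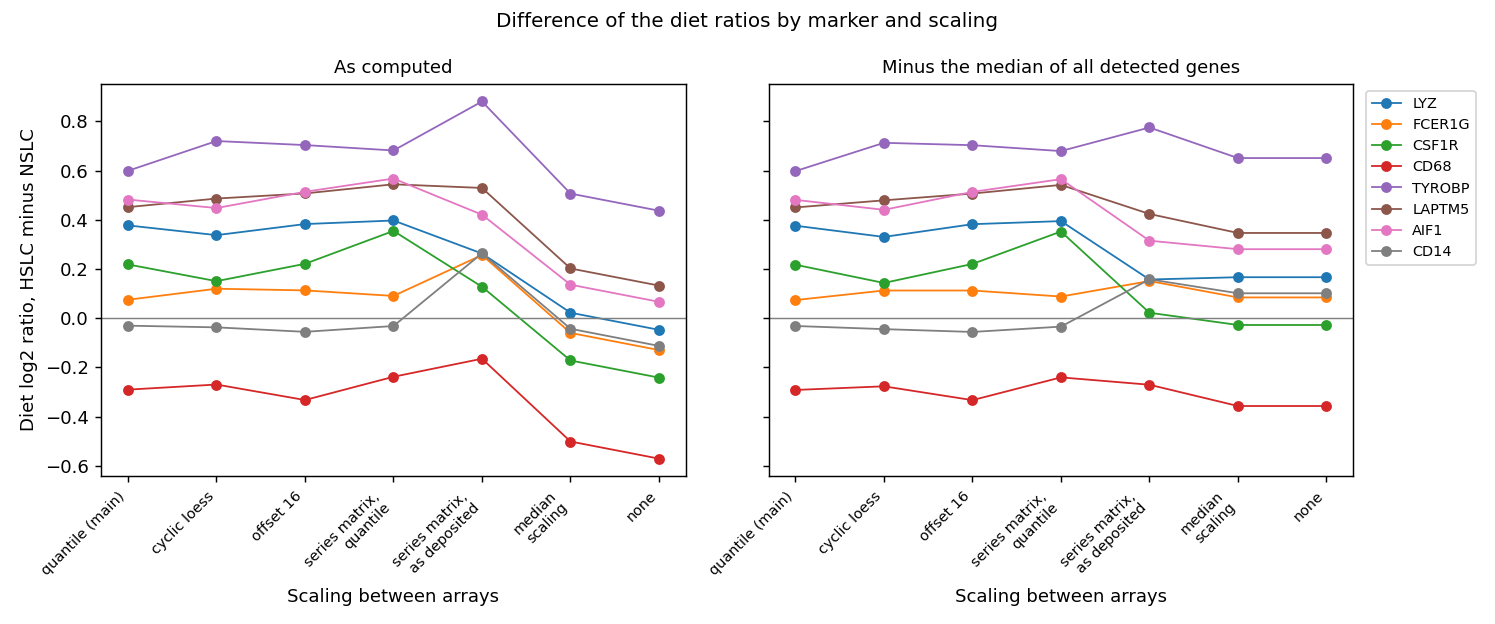
Difference of the diet log2 ratios, HSLC minus NSLC, for the 8 markers (coloured lines) under 7 ways of scaling the arrays, as computed (left) and after taking off the median of all detected genes (right). TYROBP lies highest and CD68 lowest in every setting, while CSF1R, FCER1G and LYZ move close to or below 0 on the left where arrays were not normalized.

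On low sodium 5 of 8 markers were higher in HSLC than in NSLC, against 50.8% of genes. The ratios of HSLC over NSLC ran from -0.11 for LAPTM5 to 0.20 for CSF1R, with a median of 0.03 over 8 markers, and 0 passed 1.5-fold, against 0.542% of 12358 genes higher and 0.324% lower. On high sodium 7 of 9 markers were higher in HSLC, against 56.1% of genes. TYROBP stood at 0.69, LYZ at 0.51, AIF1 at 0.50, CSF1R at 0.41 and LAPTM5 at 0.34. CD68 was lower in HSLC at -0.33 and FCER1G was at -0.03. The 1 marker past 1.5-fold was TYROBP, against 0.463% of 12517 genes higher and 2.13% lower, and it was at 0.52 without normalization. Each of these ratios shares its arrays with the diet comparisons above. In the additive limma fit 0 of 8 markers passed the threshold between the phenotypes over both diets, against 0.856% of genes that rose and 2.87% that fell, with 4 at an unadjusted p under 0.05, all higher in HSLC. At that unadjusted level 758 of 11909 genes were higher in HSLC and 1040 lower. The closest were TYROBP at 0.40 ± 0.12 (limma adjusted p = 0.0921) and CSF1R at 0.30 ± 0.09 (limma adjusted p = 0.0955). With an offset of 16, TYROBP passed (limma adjusted p = 0.0287).

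Other markers of the lineage, named in a list of 25, had 21 with a probe and 12 detected on all 4 arrays. Of these, 7 rose and 0 fell with high sodium in the limma fit, with a median of 0.36. The complement C1q chains, which tissue macrophages make, were among them: C1QC rose by 0.82 (limma adjusted p = 6.97e-05), C1QA by 0.68 (0.000352) and C1QB by 0.58 (0.000623). FCN1, a lectin of circulating monocytes, rose by 0.66 (0.000271), MS4A6A by 0.41 (0.00606, but 0.0921 without normalization) and VSIG4, a complement receptor of resident macrophages, by 0.31 (0.0296, but 0.156 without normalization and 0.0674 with cyclic loess). VCAN rose by 1.36 (5.21e-07), a matrix proteoglycan that monocytes and fibroblasts both make. SPI1, the transcription factor PU.1 of the myeloid lineage, was at -0.01 (0.967) and at 0.15 without normalization, and the scavenger receptors MSR1 and STAB1 were at 0.18 (0.223) and 0.22 (0.116, but 0.0232 with median scaling). MRC1, MS4A7, MS4A4A, CTSS, CLEC7A and TREM2 were detected on 0 arrays.

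**Figure D4:**
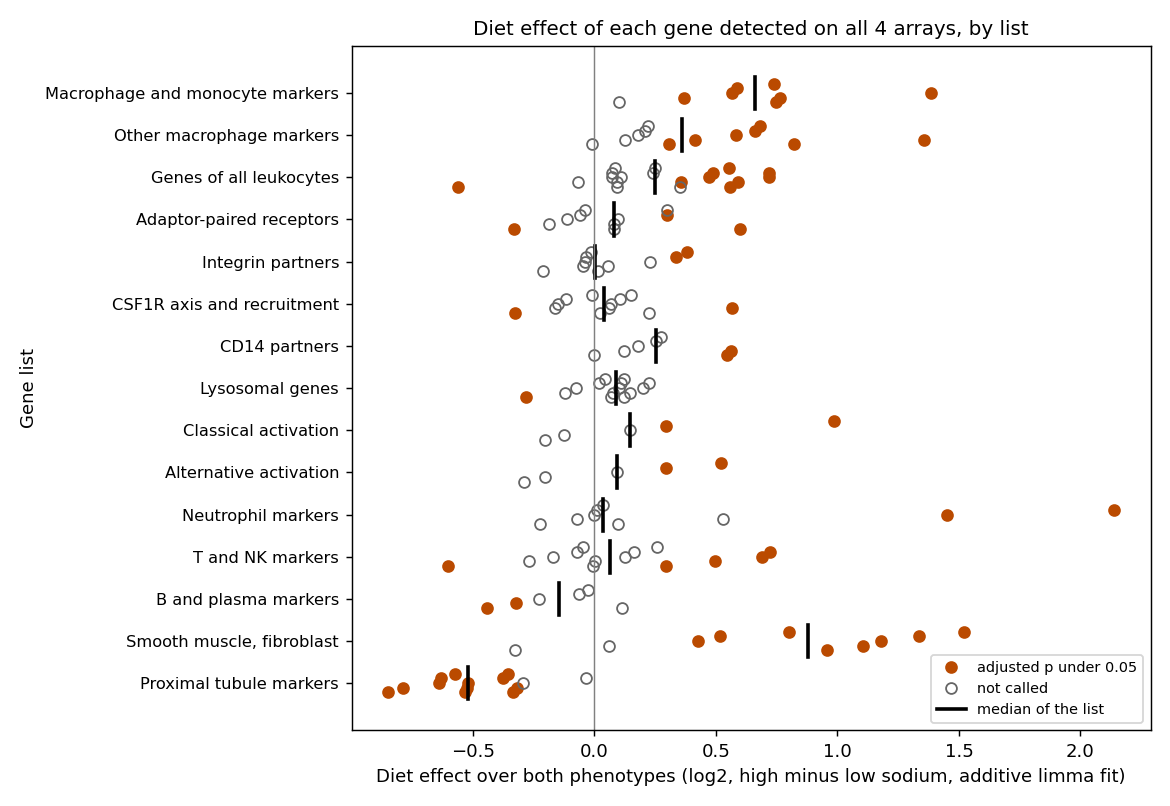
Shared diet effect (log2, high minus low sodium) of each gene detected on all 4 arrays, by gene list, with filled points for an adjusted p under 0.05 in the additive limma fit and black bars at the list medians. The median is 0.66 for the 10 markers' detected members and 0.36 for other macrophage markers, and between 0.00 and 0.25 for genes of all leukocytes and for the partner lists of the markers.

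Counts for the partners of the markers are to be read beside the 8.79% of all genes that rose and the 7.11% that fell. Of 12 detected genes of the CSF1R axis and of monocyte recruitment, 1 rose and 1 fell, and the median was 0.04. CSF1 was at -0.12 (limma adjusted p = 0.423) and IL34 at 0.23 (0.121), while the chemokine CXCL12 rose by 0.56 (0.000823). CSF2RB, the beta chain of the receptors for GM-CSF, IL-3 and IL-5, fell by 0.33 (0.0275, but 0.435 without normalization). The monocyte chemokine CCL2 was detected on 0 arrays. A list of receptors that pair with TYROBP or FCER1G, and of related signalling genes, had 11 detected genes, of which 2 rose and 1 fell. The 2 that rose were HCST and VAV1, which are not such receptors. The count that rose was 0 with cyclic loess and 0 with undetected genes kept. HCST, the adaptor DAP10, whose human gene lies next to TYROBP, rose by 0.60 (limma adjusted p = 0.00634, but 0.0534 with cyclic loess). Its ratios of 0.24 in NSLC and 0.95 in HSLC were of the size of those of TYROBP. The Fc receptor FCGR2A was at 0.53 in NSLC and 0.06 in HSLC (limma adjusted p = 0.0787, but 0.0128 without normalization), FCGR3A was at -0.06 (0.701), and TREM2, which signals through TYROBP, was detected on 0 arrays. SIRPB1, also a partner of TYROBP, fell by 0.33 (limma adjusted p = 0.0248, but 0.404 without normalization). VAV1, an exchange factor downstream of the adaptors, rose by 0.30 (0.0359, but 0.268 without normalization).

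Of 10 detected integrin partners and ligands of ITGB2, 2 rose and 0 fell. These were FERMT3, the integrin activator kindlin-3 (0.38, limma adjusted p = 0.0167), and ICAM1, an endothelial and epithelial ligand (0.34, 0.0234), and both lost the call without normalization (0.13 and 0.17). The alpha chains ITGAX and ITGAL were at -0.05 (0.765) and -0.04 (0.833), and ITGAM was detected on 0 arrays. Among 7 detected partners of CD14 in recognising bacterial products, 2 rose: TLR2 by 0.56 (limma adjusted p = 0.000742) and TLR6, with which it pairs, by 0.55 (0.00133). Both lost the call with the series matrix as deposited (limma adjusted p = 0.146 and 0.108). TLR4 and LY96, the receptor complex that CD14 feeds, were detected on 0 arrays. Around CD163, 1 of 8 detected genes of haemoglobin scavenging and iron handling rose, the fatty acid and lipoprotein receptor CD36 (0.61, 0.00193, but 0.0551 with undetected genes kept). In NSLC on low sodium CD36 lay near the array median, at 78.4 against 77.7. HMOX1, which breaks down haem, was at -0.13 (0.43) and at 0.21 without normalization. HP was detected on 3 arrays.

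Of 13 genes raised in classical activation 5 were detected on all 4 arrays and 4 on 0, and 2 rose, the chemokine CXCL10 by 0.99 (limma adjusted p = 3.98e-05) and SOD2 by 0.30 (0.0381, but 0.0603 with cyclic loess). Of 12 genes raised in alternative activation 5 were detected on all 4 arrays and 7 on 0, and 2 rose, the crosslinking enzyme TGM2 by 0.52 (0.00125) and the folate receptor FOLR2 by 0.29 (0.0365, but 0.239 without normalization). IL1B was at -0.21 (0.227). Of 7 myeloid transcription factors 0 rose and 1 fell: MAF, which tubule cells also express, at -0.37 (limma adjusted p = 0.0123, but 0.829 without normalization).

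Part of the genes that leukocytes share, macrophages among them, rose with the macrophage markers. Of 19 genes common to all leukocytes, 8 rose and 1 fell, with a median of 0.25. The count that rose was 5 with cyclic loess and 2 with undetected genes kept. LCP1, an actin-bundling protein, rose by 0.72 (limma adjusted p = 0.00012). CD48 rose by 0.72 (0.00112, but 0.0548 with undetected genes kept) and CD37 by 0.59 (0.00272, but 0.064 there). HCLS1 fell by 0.56 (0.00571, but 0.393 without normalization). PTPRC, which encodes the leukocyte antigen CD45, was at -0.07 (0.663). The list's median ratio was 0.09 in NSLC and 0.48 in HSLC, and its summed intensity was 5478 and 8097 on low and high sodium in NSLC and 5583 and 9313 in HSLC. Their part in the markers' rise was not tested.

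Several markers are also made by neutrophils, among them LYZ, TYROBP, FCER1G and ITGB2. Of 18 neutrophil genes with a probe 9 were detected on all 4 arrays and 7 on 0, and 2 rose in the limma fit, with a list median of 0.03. The defensin DEFA1B had intensities of 86.6, 169, 138 and 1513 in NSLC low, NSLC high, HSLC low and HSLC high sodium. The cathelicidin CAMP had 127, 174, 150 and 967 in the same order. Both were high in HSLC on high sodium alone. On that array LYZ stood at 1069, TYROBP at 263 and FCER1G at 186, against 952, 189 and 228 in NSLC on high sodium. The normalized log2 ratios of HSLC over NSLC on high sodium were 0.51 for LYZ, 0.69 for TYROBP and -0.03 for FCER1G. The part of neutrophils in these values was not tested. DEFA1B has near-identical gene copies that a probe may not tell apart, and CAMP lost its call with cyclic loess (limma adjusted p = 0.098). S100A9, an abundant neutrophil protein, was at 0.03 (limma adjusted p = 0.838), and S100A8, S100A12, CSF3R and CXCR2 were detected on 0 arrays. Of 14 detected T and NK cell markers, 4 rose and 1 fell, led by CD8A (0.72, limma adjusted p = 0.00024) and the protease GZMA (0.69, 0.000268). ZAP70, a T cell receptor kinase, fell by 0.60 (0.00248, but 0.328 without normalization). Of 6 detected B and plasma cell markers 0 rose and 2 fell, and the median was -0.15. Of 7 detected dendritic and mast cell markers 0 rose and 1 fell. In both lists 0 fell without normalization or with median scaling.

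Tissue markers shifted as well. Of 10 detected smooth muscle and fibroblast genes 8 rose and 0 fell, with a median of 0.88, led by COL1A1 (1.52, limma adjusted p = 1.86e-07). Their summed intensity was 9294 and 27226 on low and high sodium in NSLC and 10301 and 20234 in HSLC. Of 14 detected proximal tubule genes 0 rose and 12 fell, with a median of -0.52, led by MIOX (-0.85, 6.39e-05), but 0 fell without normalization and 2 with median scaling. Of 9 endothelial genes 2 rose and 1 fell, led by VWF (0.98, 1.78e-05), and 0 fell without normalization. Of 7 erythrocyte genes 0 rose and 4 fell, and 0 fell without normalization, while of 6 skeletal muscle genes 0 rose and 6 fell. The part of these shifts in the markers' ratios was not tested.

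The genes whose profile over the 4 arrays lay closest to the markers' median profile were sought among 11901 other genes, by the Euclidean distance of mean-centred log2 values. The markers' median profile was -0.32 and 0.16 on low and high sodium in NSLC and -0.29 and 0.46 in HSLC. The closest 10 were ENO2 (0.02), LEF1 (0.04), CRIP2 (0.04), EMP3 (0.04), SLC15A3 (0.05), COL16A1 (0.06), TGFBI (0.07), CDKN2B (0.07), S100A6 (0.07) and TLR6 (0.07). LAPTM5 was the marker nearest to that profile (0.11), with 34 other genes closer than it, and LYZ the farthest (0.79). A likeness over 4 arrays is a description and is shared by many genes.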

How the data were processed

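Total RNA was extracted with Trizol and cleaned on Qiagen RNeasy columns, labelled with Illumina TotalPrep and read with Cy3, per the labels. The deposited values are linear signal intensity per probe, for which the submitters' processing notes name BeadStudio with no version. What the authors did for background, scaling or pooling is unknown here, and no detection p-value was used. A further deposited table of intensity, the series matrix, has column means that are equal within each phenotype (215 in NSLC, 192 in HSLC) and served as an alternative.

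From the sample files 1 probe listed at 0 was left out. Intensities were corrected by normexp with an offset of 50, quantile-normalized and put on the log2 scale (limma 3.58.1, R 4.3.3), so the log2 values were computed here from the deposited intensities. Of the probes, 23688 carried 1 gene symbol, 35 several and 24979 none. Each gene was represented by its brightest probe. The ratios have no test. The additive fit used lmFit and eBayes with Benjamini-Hochberg adjustment over 11909 genes detected on all 4 arrays, with a threshold of 0.05, and the adjusted p-values printed come from it. The pipeline was tested on simulated data. The offset compresses ratios, most of all of dim probes.

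The markers, the 21 gene lists, the comparisons and the size rule were chosen with earlier results of these data known. Named genes were all markers, up to 4 detected genes per list with the largest absolute diet effect, a fixed set of partners, and the 10 genes nearest to the markers' profile. C1QB, MS4A6A, VSIG4 and S100A9 and the undetected genes fall outside that rule and were named after their values were seen. The number of arrays limits the precision. Alternatives were other scalings, an offset of 16, no background correction, the series matrix, other detection limits (none, or the 75th percentile), the mean over probes, other probes, a 2-fold rule and leaving out LYZ. Added after seeing the data were leaving out each array, diet as the only term, the other phenotype's low sodium array as the base, the series matrix as deposited, and ratios relative to the median of all genes.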

Additional observations from a re-analysis of the deposited data

Results flagged for a closer look

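The diet ratios of PSAP and SPI1 had opposite signs in the phenotypes, each beyond the probe-pair scatter, and the difference was not tested. PSAP, the precursor of the lysosomal saposins, stood at 0.63 in NSLC and -0.34 in HSLC, a difference of -0.97, and kept these signs under the 10 alternatives. SPI1, a transcription factor of the macrophage lineage, stood at -0.26 and 0.24, a difference of 0.50, but at 0.01 in NSLC without normalization. Groups of 1 array cannot be searched for outlying samples.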

How the results depend on the processing

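The diet effects of LYZ, CSF1R, CD68 and FCER1G kept their direction and their call under the 10 alternatives that kept both terms of the fit, with adjusted p of at most 0.00751, 0.0131, 0.017 and 0.00864. The markers that rose numbered 7, but 4 with no detection filter. With diet as the only term 0 rose on all 4 arrays (5 at an unadjusted p under 0.05 in limma) and 0 to 7 with an array left out, and those fits differ from the reported one in both terms and arrays. Genes that rose (1047) numbered 1763 with median scaling, 602 with no filter, 434 with the series matrix as deposited, 25 with diet as the only term and 0 to 524 with that term and an array left out. Those that fell (847) went to 37 when arrays were left unscaled, to 73 under median scaling, 416 under cyclic loess, 281 with no filter, 407 with the series matrix as deposited, 5 with diet as the only term and 0 to 274 with that term and an array left out. Where 0 genes rose, 508 (without NSLC low sodium) and 850 (without HSLC low sodium) had an unadjusted p under 0.05 in limma.

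The NSLC median of 0.34 was 0.76 without normalization, 0.71 with median scaling and 0.64 with detection above the 75th percentile. With a 2-fold rule 1 marker was higher in each diet comparison and 0 between phenotypes on high sodium or in the difference of diet ratios. On low sodium the HSLC over NSLC median of 0.03 was -0.23 with the series matrix as deposited. On high sodium the median of 0.34 was 0.047 without normalization and 0.12 under median scaling, and the count of 1 marker was 0 without normalization and 2 with the series matrix. The difference of diet ratios (0.30) reversed to -0.080 without normalization and -0.011 under median scaling, where 0 markers passed 1.5-fold. Single differences that reversed were LYZ (-0.048) without normalization and CSF1R at -0.24 there and -0.17 under median scaling. FCER1G, at 0.07 within the probe scatter, was at -0.13 and -0.06 in those settings, and CD14, at -0.03, was at 0.26 with the series matrix as deposited. The diet effect of CD14 was -0.14 with the series matrix as deposited, and its phenotype effect -0.17 there and -0.022 without normalization.

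For the phenotype effect 0 markers rose, but 1 with an offset of 16 and with detection above the 75th percentile. Genes that rose (102) numbered 25 with unscaled arrays, 23 under median scaling, 12 under cyclic loess, 159 with the offset of 16, 45 with the mean over probes, 29 with the series matrix as deposited, and 0 with no filter (1001 at an unadjusted p under 0.05 in limma). Genes that fell (342) numbered 182, 165, 127, 189 and 1 with unscaled arrays, median scaling, cyclic loess, the mean over probes and no filter. Over the alternatives, genes past the size rule ranged from 61 to 2087 higher and 18 to 813 lower in the NSLC diet comparison and from 66 to 427 and 29 to 217 in the HSLC one. They ranged from 34 to 102 and 6 to 73 between phenotypes on low sodium, 12 to 108 and 44 to 881 on high sodium, and 8 to 159 and 34 to 898 for the difference of diet ratios. The cause of these changes was not tested. No paired analysis was possible because each group is 1 array. Probes near the array median limit what can be said of CD14, CD163 and ITGB2.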
